A study of Ulmus minor with 54 samples.

Results

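The 153 transcripts described here are assembled sequences of the elm leaf. They stood lower in fed than in unfed leaves 24 h after beetle larvae were placed on them. At 1 and 6 h the transcripts lay within a set band around the unfed level, and at 6 h mostly on its lower side. They were 153 of the 237477 sequences in the deposited table. The members were selected on group medians of CPM, the read counts scaled to a common library size with TMM, over 53 of the 54 libraries. A sequence was a member when 4 conditions on these medians held. Its median over the 18 libraries of the unfed groups C and CC lay between 2 and 300 CPM. Its log2 ratio of fed over unfed leaves at 24 h, with 0.5 CPM added to each median, was at most -1 both without and with earlier simulated eggs. The same ratios at 1 and 6 h lay between -0.5 and 0.5. The log2 ratio of leaves 1 h after simulated eggs over untreated leaves lay between -0.8 and 0.8. The level window held 29546 sequences, of which 929 met the condition at 24 h, 865 of these also the condition on eggs, and 153 all of them. The rule took the 200 lowest, so that its limit on number removed none.

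The libraries came from leaves of Ulmus minor, the field elm, on wild-type trees of 15 to 19 weeks raised in a greenhouse from 1 clonal in vitro culture. In the priming set, leaves with simulated eggs (P) and untreated leaves (C) were harvested 1, 6 and 24 h after treatment. Simulated eggs were a strip of epidermis of 1.5 cm by 1 mm removed with a scalpel and covered with oviduct secretion of elm leaf beetles, and the C leaves had no such wound, so wound and secretion cannot be told apart. The triggering set began on day 7 and was sampled 1, 6 and 24 h later. Its leaves had 5 newly hatched larvae alone (CT), simulated eggs and then larvae (PT), simulated eggs alone (PC) or neither (CC). Each of the 18 combinations had 3 libraries from about 100 mg of leaf around the treated site. The labels do not name the tree of each library, so p-values measure the spread between these libraries, which may be technical in part. As RNA of whole leaf pieces was measured, fewer cells of a kind and less RNA per cell cannot be told apart.

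Chewing insects set off jasmonate signalling in a damaged leaf within hours. In many plants the defence genes that then come on are followed by lower levels of transcripts for growth and photosynthesis. Many leaf transcripts also follow the time of day, through light and the circadian clock. The identifiers of the table come without gene names, so none of these roles is assigned to a member and the tissue was not checked against markers. Each member is given by its identifier, its level and its response.

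Replicate 1 of CT at 24 h stood apart. It held 14667334 reads, against 28916592 to 93878963 in the other libraries, and its 10 most abundant sequences took 80.3% of them, against 5.68% to 58.5%. The rule left this library out, and so do the values below unless they say otherwise, which leaves 2 libraries of CT at 24 h.

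Of the members, 47 were scaffolds and 106 contigs. The share of scaffolds was 30.7% (95% exact binomial interval 23.5% to 38.7%), against 40.6% over the level window. The interval takes the members as independent draws. Several contigs with neighbouring identifiers went together over the libraries, given further on, so the members may not be independent. No lack of scaffolds is therefore read from the interval. The median level of a member over the 18 C and CC libraries was 7.93 CPM, with a range of 2.02 to 272 CPM, against a median of 5.73 CPM over the level window. Thus 92 members lay under 10 CPM, 39 between 10 and 50 CPM and 22 at 50 CPM or more. The highest were scaffold23137, C598279 and scaffold1022, at 272, 168 and 164 CPM. The lowest were C106639 and C190857, at 2.02 and 2.04 CPM. Depth was ample for most values, since the median over the 8109 pairs of member and library was 377 reads, and 13 pairs held fewer than 10.

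The values that chose the members are a description and carry no test. At 24 h the log2 ratio of CT over CC had a median of -1.30 (range -2.23 to -1.003), and that of PT over PC -1.21 (range -2.51 to -1.004). Over the level window the medians were -0.12 and -0.10. At 6 h, within the allowed band, the members already leaned to the lower side, with medians of -0.24 for CT over CC and -0.26 for PT over PC, against 0.00 and -0.08 over the window. At 1 h the medians were -0.08 and -0.17, and that of P over C was -0.12. Added up over the members, the level at 24 h was 1557 and 1614 CPM in the CT libraries, 1561 to 2094 CPM in PT, 3757 to 4917 CPM in PC and 3763 to 5321 CPM in CC. No fed library of 24 h reached the lowest unfed library of the triggering set in this sum.

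For each member, its deviation is log2(CPM + 0.5) minus the mean of that value over the 18 C and CC libraries. At 24 h the median deviation of the members was -1.17 and -1.20 in the CT libraries and -0.88, -0.99 and -1.20 in the PT libraries. It was -0.08 to 0.38 in the PC and 0.00 to 0.35 in the CC libraries. In the same fed libraries the median of the level window stayed between -0.15 and -0.03. In the priming set at 24 h the median deviation of the members was -0.67, -0.77 and -0.31 in P and 0.02, -0.64 and -0.30 in C. Replicates 1 and 2 of P and replicate 2 of C at 24 h were the lowest of the remaining libraries.

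**Figure D1:**
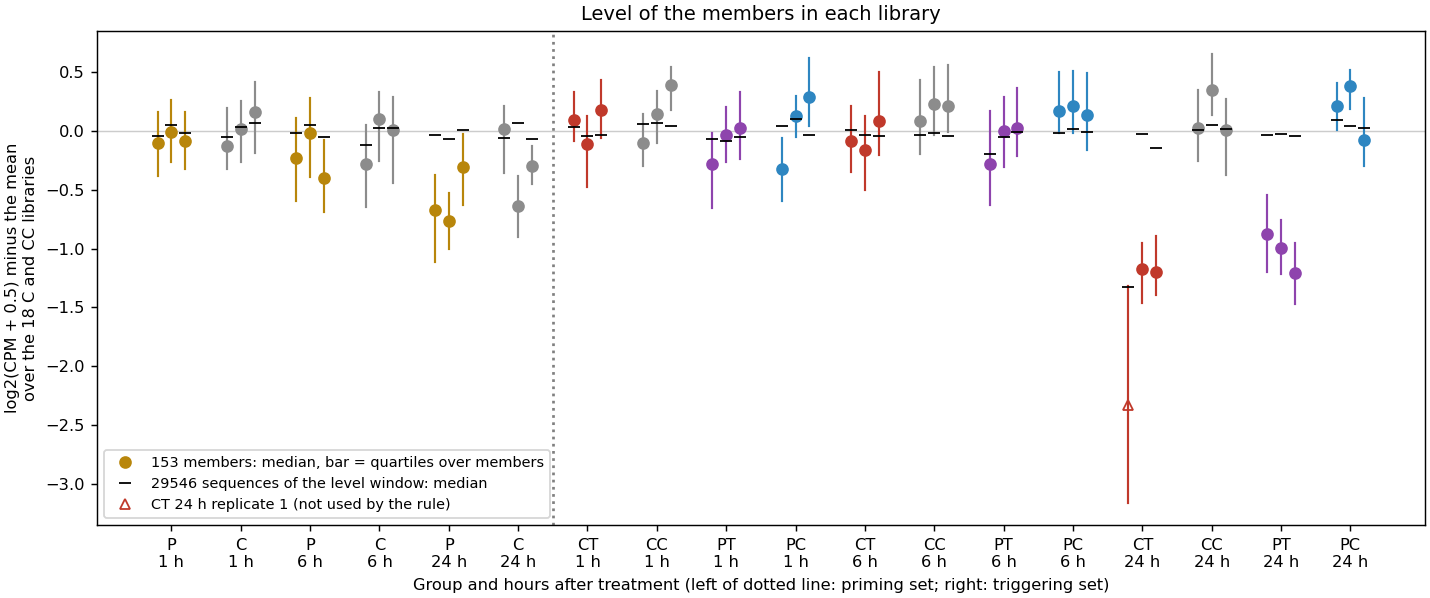
Median deviation of the 153 members in each library (points, with bars from the lower to the upper quartile over members) and of the 29546 sequences of the level window (dashes), on a log2 scale and by group. The fed libraries of 24 h stood at -0.88 or below, replicates 1 and 2 of P and replicate 2 of C at 24 h came next, and the open triangle is the library that the rule left out.

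The member with the lowest ratios was scaffold6288. At 24 h it had 23.5 and 50.9 CPM in CT leaves, against 200.3, 176 and 118 CPM in CC leaves. With earlier eggs it had 29.6, 32.5 and 28.1 CPM in PT leaves, against 126, 151 and 116 CPM in PC leaves. All fed libraries of that time lay below all unfed ones. At 6 h the groups overlapped, with 103, 49.0 and 99.0 CPM in CT leaves and 116, 137 and 51.4 CPM in CC leaves.

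The next member, scaffold19112, had 35.03 and 38.4 CPM in CT and 25.7, 46.95 and 9.83 CPM in PT at 24 h. Its unfed libraries of that time held 213, 149 and 146 CPM in PC and 150.3, 308 and 126 CPM in CC. Its priming libraries of 24 h, at 51.9, 53.5 and 32.5 CPM in P and 50.96, 47.2 and 48.8 CPM in C, also lay under all PC and CC libraries of that time. This gap between the sets was not tested, and the rule favoured members with high PC and CC medians at 24 h.

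Farther down in level, scaffold1784 had 1.50 and 1.09 CPM in CT and 1.51, 1.83 and 0.962 CPM in PT at 24 h, against 5.98, 7.07 and 6.30 CPM in PC and 5.25, 9.91 and 5.62 CPM in CC. In C174075 the level also differed between the times in unfed leaves. Its C libraries held 2.64, 2.99 and 3.60 CPM at 1 h, 0.719, 0.607 and 0.444 CPM at 6 h and 3.30, 0.637 and 1.36 CPM at 24 h. It was thus low in all C libraries of 6 h, and at 24 h it was low in 1 of them and high in another.

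**Figure D2:**
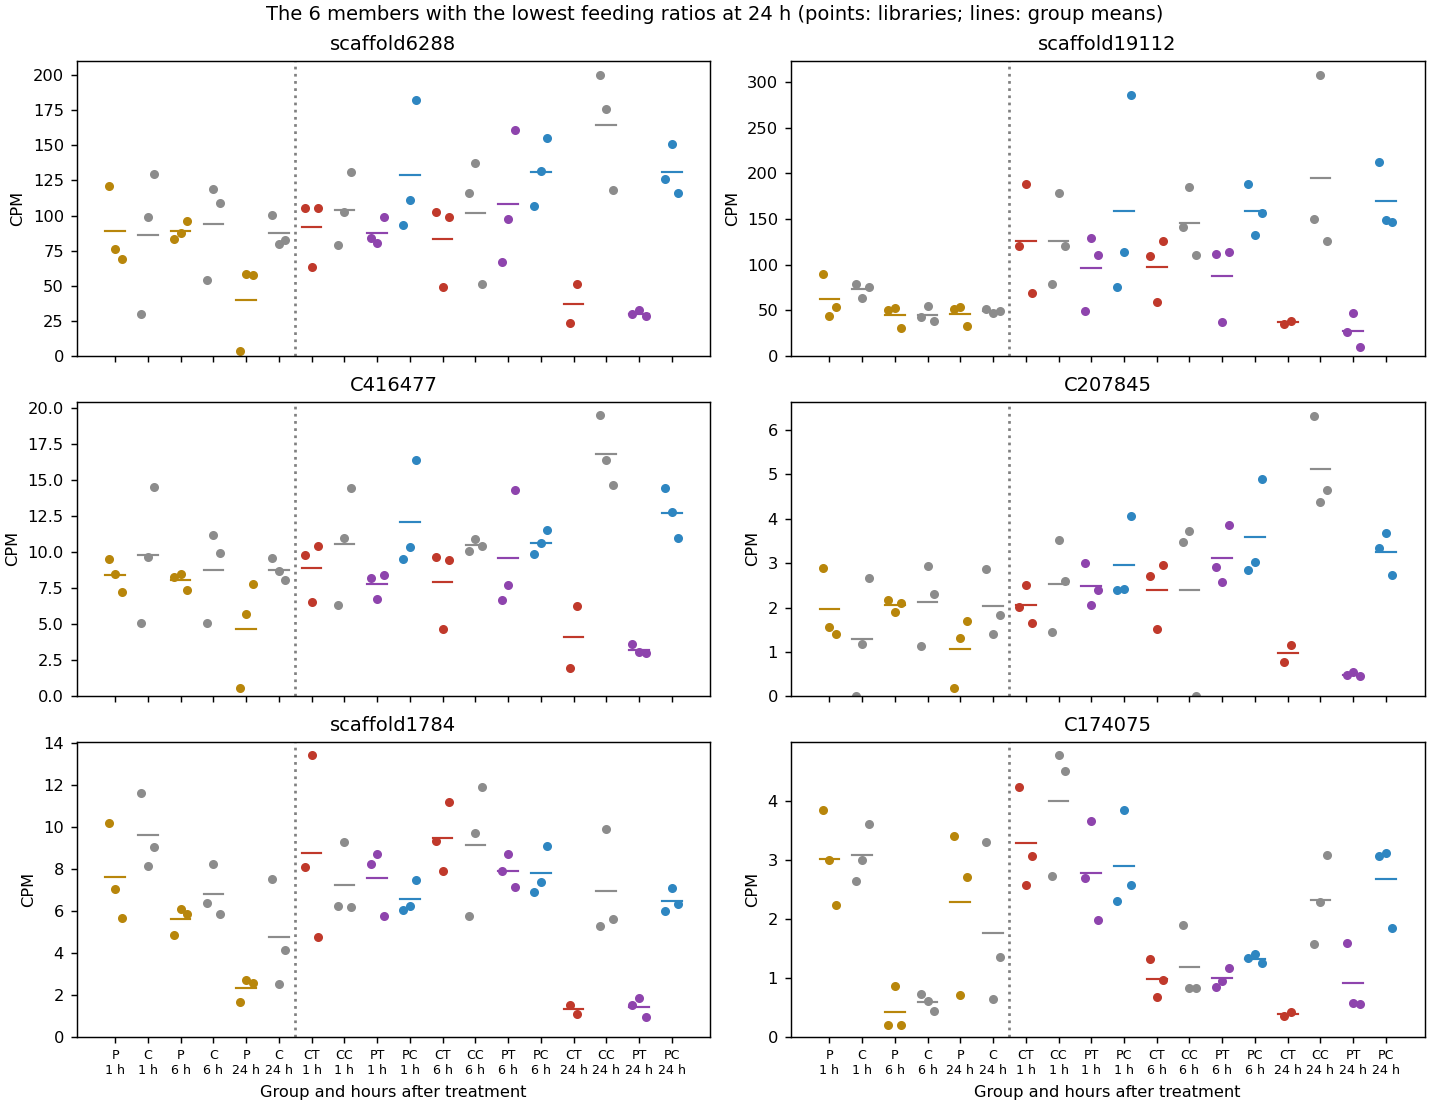
CPM in each library (points) and group means (lines) of the 6 members with the lowest ratios at 24 h, with the priming set left of the dotted line and replicate 1 of CT at 24 h left out. In scaffold6288 the CT libraries of 24 h lay at 23.5 and 50.9 CPM and the CC libraries between 118 and 200.3 CPM, while in C174075 the C libraries were also low at 6 h, at 0.444 to 0.719 CPM.

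At the other end of the list, scaffold2767 and C614879 had larger ratios of -1.003 and -1.004, and C567157 and C248643 of -1.01 each. The sequences just outside were C557887, C550057, C261615 and C270981, with larger ratios of -0.999 for C557887 and -0.998 for the others. The ratios thus ran on across the edge of the list, and C270981, just outside, had 1.97 and 1.62 CPM in CT at 24 h, against 2.21, 4.08 and 4.45 CPM in CC.

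In edgeR's quasi-likelihood test, fitted over all 156137 sequences tested in the triggering set, 136 members were called lower in CT than in CC at 24 h (called meaning a p of 0.05 or less after Benjamini-Hochberg adjustment), where the share over all sequences was 4.1%. For PT against PC at 24 h 147 were called lower, where that share was 4.72%. The rule used both contrasts, so nothing is read from these counts. Without replicate 2 of CT the first count was 42 and without its replicate 3 it was 68, each with 1 CT library left, which was assumed to vary like the other groups. Without replicate 3 of PT the second was 97. At 6 h no member was called, with 0.108% of all sequences called lower in CT against CC and 0.405% in PT against PC. In each of these contrasts, which the rule also used, 137 members had a log2 fold change below 0. Over the level window 53.6% and 57.8% had one. Before adjustment 18 members (window 8.18%) and 13 members (window 12.9%) were lower at 6 h at a p under 0.05, and DESeq2 called 0 and 1 (C565161, lower). At 1 h no member was called by edgeR or DESeq2, where 0.00961% and 0.098% of all sequences were called by edgeR. Before adjustment 4 members were lower in CT than in CC (C565161, C544079, scaffold23137 and C271695; window 6.09%). In PT against PC 2 were lower (C246327 and scaffold15791; window 10.5%) and 1 higher (C614879; window 4.26%).

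Replicate 1 of CT at 24 h was not used by the rule, but the CC libraries it is set against were, so its values are a description. In that library 144 of the 153 members (94.1%) lay below the lowest CC library of that time, as did 76.7% of the level window. In the other CT libraries, which the rule used, 149 and 151 members did so, against 39.7% and 47.4% of the window. In the left-out library most sequences of the window were low, with a median deviation of -1.32, and the members had -2.33. Its depth on the members was small, with 5044 reads in all, a median of 8 per member, and 35 members at 0 reads (22.9%, against 16.5% of the window). With this library in the fit, 138 members were called lower in CT than in CC at 24 h.

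Simulated eggs alone, 24 h after treatment, gave members that leaned to the lower side and no call. In P against C at 24 h, 132 of the 153 members had a log2 fold change below 0, as had 53.5% of the level window, and the median was -0.26, against -0.02 over the window. The C libraries of 24 h entered the rule through the level window alone, and the P libraries of 24 h not at all. No member was called by edgeR's quasi-likelihood test, where 0.0229% of all 126737 sequences tested were called, all of them higher, and DESeq2 called 0 members. At an unadjusted p under 0.05, 21 members (13.7%) were lower and 0 higher, against 2.21% and 2.47% of the level window. The P libraries lay wholly below the C libraries in 11 members (7.19%), where the window gave 3.15%, and wholly above them in 0, where it gave 2.51%.

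These values lean on single libraries. Replicate 1 of C at 24 h was the C library with the highest members and replicate 2 the one with the lowest. Without replicate 1 of C the median of P against C was -0.10 and without its replicate 2 it was -0.45. Without replicate 2 of P it was -0.15, with 1 member called lower (C166159, adjusted p = 0.00545 in edgeR's quasi-likelihood test), and without replicate 3 of P it was -0.48. The count of members below 0 stayed between 103 and 140 when a library was left out.

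The members with the smallest p in this contrast were C155965 and C241559. C155965 had 2.18, 3.82 and 2.65 CPM in P leaves, against 10.7, 5.36 and 4.596 CPM in C leaves at 24 h. Its 3 P libraries lay below its 3 C libraries, and the log2 fold change was -1.26 ± 0.32 (SE) with adjusted p = 0.226 by edgeR's quasi-likelihood test. C241559 had 6.09, 11.8 and 7.03 CPM in P leaves, against 29.7, 16.3 and 13.4 CPM in C leaves. Its groups did not overlap either, and its log2 fold change was -1.26 ± 0.36 (SE) with an adjusted p of 0.326. Neither passed the threshold, and in both 1 C library was about as high as the other C libraries together. Over the alternatives their adjusted p lay between 0.0636 and 0.958 for C155965 and between 0.0990 and 1 for C241559. Both are among the members whose levels went together over the libraries, given further on.

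Of the leading members, scaffold1784 had 1.64, 2.72 and 2.56 CPM in P leaves at 24 h, against 7.53, 2.53 and 4.14 CPM in C leaves, and its groups overlapped. Scaffold6288 had 3.79, 58.1 and 57.9 CPM in P leaves, against 101, 80.1 and 82.9 CPM in C leaves. Its P libraries all lay lower, with a log2 fold change of -1.15 ± 0.65 (SE, adjusted p = 0.994 in edgeR's quasi-likelihood test), and its replicate 1 stood far under the other P libraries.

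At 6 h after eggs no member was called either. In P against C, 114 members were below 0, with a median of -0.13, against 0.02 over the window. Without replicate 2 of C the median was -0.07, with 91 below 0, without replicate 3 of P it was -0.06, with 95 below 0, and without replicate 2 of P it was -0.20. edgeR's quasi-likelihood test called 0.0292% of all sequences, all higher, and DESeq2 called 0 members. Before adjustment 5 members were lower at a p under 0.05 (C478835, C599681, C592023, C223593 and scaffold4197) and 2 higher (scaffold7837 and C252019), where the window gave 2.32% lower and 3.09% higher. C478835 had 9.09, 11.1 and 8.64 CPM in P leaves, against 15.9, 16.4 and 14.5 CPM in C leaves, with groups that did not overlap. Its log2 fold change was -0.71 ± 0.26 (SE), at adjusted p = 0.699 by edgeR's quasi-likelihood test. C599681 had 1.09, 1.44 and 1.19 CPM in P leaves, against 1.25, 2.21 and 2.80 CPM in C leaves, and its groups overlapped (adjusted p = 0.719). P libraries lay wholly below C libraries in 10 members (6.54%, window 5.35%) and wholly above in 2 (1.31%, window 9.02%), which were C252019 and scaffold7837. At 1 h, the contrast that the rule used, the median was -0.06, and neither edgeR nor DESeq2 called a member, where edgeR called 0.11% of all sequences. Before adjustment scaffold7817, C292169 and C462295 were lower, 3 members, where 2.07% of the window were.

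**Figure D3:**
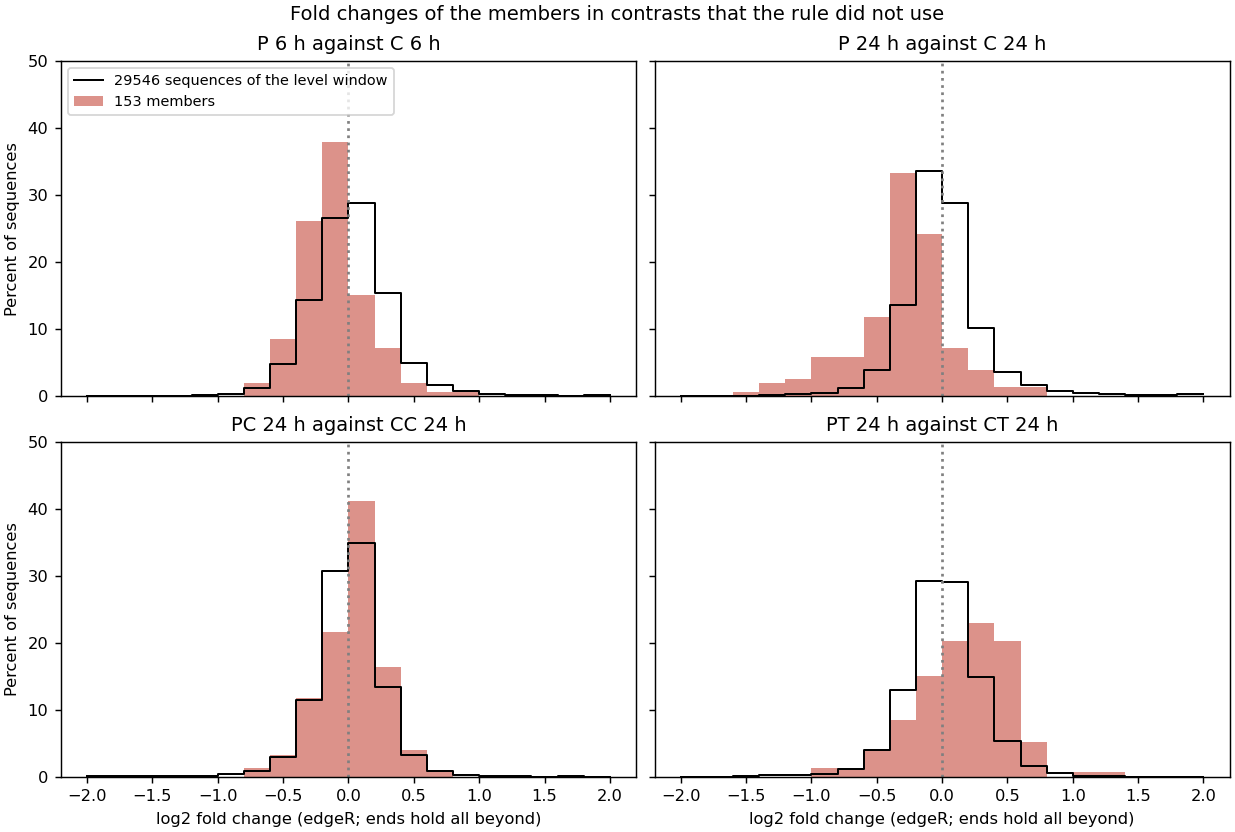
Shares of the 153 members (bars) and of the 29546 sequences of the level window (line) by their log2 fold change in 4 contrasts that the rule did not compute. The members lay left of the window in P against C at 24 h (median -0.26), close to it in PC against CC at 24 h (median 0.06) and right of it in PT against CT at 24 h (median 0.20).

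Simulated eggs 7 days earlier left no call among the members in leaves without larvae. The libraries of these contrasts also entered the rule, as references of the feeding ratios. In PC against CC the median log2 fold change of the members was -0.11 at 1 h, -0.01 at 6 h and 0.06 at 24 h, and over the level window it was -0.01, 0.01 and 0.02. These medians turned with single libraries. At 1 h the median was 0.05 without replicate 1 of PC, 0.03 without replicate 3 of CC, -0.23 without replicate 1 of CC and -0.31 without replicate 3 of PC. At 24 h it was -0.04 without replicate 2 of PC, -0.03 without replicate 1 of CC and -0.02 without replicate 3 of CC, and 0.15 without replicate 3 of PC and 0.21 without replicate 2 of CC. At 6 h it lay between -0.03 and 0.00 when a library was left out. No direction is therefore read from them. edgeR's quasi-likelihood test called no sequence at any of the 3 times (0% of all tested), and DESeq2 called 0 members. Over the 3 times 1 member had an unadjusted p under 0.05, C615481 at 24 h, where 1.23% of the window were higher. It had 11.7, 15.0 and 12.6 CPM in PC leaves, against 8.47, 9.64 and 6.47 CPM in CC leaves. Its groups did not overlap, and its log2 fold change of 0.66 ± 0.27 (SE) had an adjusted p of 1. C544079, at 1 h, came next, with 7.02, 10.3 and 7.52 CPM in PC leaves and 10.5, 13.2 and 9.83 CPM in CC leaves. Its groups overlapped, while PC was lower than CC in each of the 3 same-numbered pairs, and with the replicate block its log2 fold change was -0.45 at an adjusted p of 1 in edgeR.

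Whether earlier eggs changed the level of the members in fed leaves was asked with PT against CT at 24 h. The members stood somewhat higher in PT, with a median log2 fold change of 0.20, against 0.01 over the level window, and 46 of 153 below 0, against 48.2% of the window. edgeR's quasi-likelihood test called no sequence (0% of all tested) and DESeq2 called 0 members. At an unadjusted p under 0.05, 9 members were higher (5.88%) and 2 lower (C326099 and C241559), against 1.93% and 0.907% of the window. All 3 PT libraries lay above both CT libraries in 43 members (28.1%, window 14.6%) and below both in 6 (3.92%, window 8.22%). The rule used the medians of both groups and asked both to be low, so this difference is not free of it. Without replicate 1 or 2 of PT the median was 0.12, without its replicate 3 it was 0.31, and with replicate 1 of CT in the fit it was 0.30.

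Scaffold6788 had the smallest p, with 36.7, 33.2 and 31.2 CPM in PT leaves, against 20.8 and 22.1 CPM in CT leaves. Its groups did not overlap, and its log2 fold change was 0.61 ± 0.19 (SE), at adjusted p = 1 by edgeR's quasi-likelihood test. Without larvae it had 90.7, 91.1 and 77.7 CPM in PC leaves and 75.1, 82.8 and 74.1 CPM in CC leaves at 24 h, so its fed leaves of both kinds were lower. Scaffold11476 followed, with 83.8, 50.5 and 59.5 CPM in PT leaves, against 37.1 and 46.2 CPM in CT leaves (log2 fold change 0.59 ± 0.22, SE, adjusted p = 1).

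The interaction, PT against PC minus CT against CC, had a median of 0.18 over the members and 0.01 over the window at 24 h, from libraries that the rule also used. edgeR's quasi-likelihood test called no sequence (0% of all tested), and DESeq2 called 0 members. C241559 alone among the members had an unadjusted p under 0.05, with an interaction of -1.33 ± 0.54 (SE), where 1.45% of the window were lower. It had 3.34, 5.71 and 2.96 CPM in PT and 14.4, 23.01 and 19.3 CPM in PC, against 8.05 and 6.06 CPM in CT and 15.3, 17.9 and 7.12 CPM in CC. Its fed leaves were thus lower with earlier eggs, in the opposite direction to most members, and its CC replicate 3 lay within the range of the CT libraries. Scaffold6788 was next, at 0.46 ± 0.25 (SE, adjusted p = 1). When a library was left out, the median interaction of the members lay between 0.00 (without replicate 2 of CC) and 0.27 (without replicate 2 of PC), and it was 0.04 without replicate 1 of PT and 0.08 without replicate 2 of CT.

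Some members differed between harvest times in unfed leaves. Between 1 and 6 h in the C leaves of the priming set, 18 members rose and 22 fell by edgeR's quasi-likelihood test. That is 11.8% and 14.4% of them, where 5.62% and 4.35% of all sequences and 10.6% and 9.09% of the level window were called. The share of risen members was near that of the level window, and the share of fallen members above it. Of the 22 that fell, 6 form a group that went together over the libraries, given further on. They may not be independent, and the share was not tested against the window. The labels give no clock hour, and time after treatment and time of day cannot be told apart. With only the 2 groups in the fit 67 members were called, and the share over all sequences in that fit is not given here. Without replicate 2 or 3 of C at 1 h the count was 26 or 24, and without replicate 2 or 3 of C at 6 h it was 23 or 25.

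Among those that fell, scaffold23292 had 13.5, 11.5 and 11.9 CPM at 6 h, against 65.9, 60.8 and 54.6 CPM at 1 h. The groups were far apart, and the log2 fold change was -2.24 ± 0.16 (SE) with an adjusted p of 3.39e-06. By 24 h it was back at 40.99, 42.2 and 48.3 CPM. C252019 had the same course, with 4.89, 3.76 and 4.09 CPM at 1 h, 0.719, 0.809 and 0.856 CPM at 6 h and 4.38, 4.30 and 4.42 CPM at 24 h. Its log2 fold change of 24 h against 6 h was 2.43 ± 0.20 (SE, adjusted p = 7.07e-06), the smallest p among the members in that contrast.

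Among those that rose, scaffold3013 had 37.5, 37.4 and 39.5 CPM at 1 h, 74.7, 101 and 86.1 CPM at 6 h and 38.2, 29.1 and 28.7 CPM at 24 h. It was higher in all C libraries of 6 h than in any other C library, and its log2 fold change of 24 h against 6 h was -1.46 ± 0.17 (SE, adjusted p = 7.2e-05). C309929 had the same course, with 33.5, 23.6 and 28.03 CPM at 1 h, 53.6, 66.3 and 57.4 CPM at 6 h and 25.8, 21.5 and 19.7 CPM at 24 h.

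The triggering set gives the same contrast in other leaves, CC and PC, whose 1 h and 6 h libraries entered the rule against the fed leaves of their own time, those of CC also in the level window. All 18 members that rose in C had a log2 fold change above 0 for 6 h against 1 h in CC and in PC, with medians of 0.96 and 0.95, against 1.13 in C. Of the 22 that fell in C, 19 were below 0 in CC and 20 in PC, with medians of -0.56 and -0.54, against -1.82 in C. Both classes were picked by their call in the C libraries, which favours larger fold changes in C. The medians of the 22 lay nearer 0 in the triggering set, and this difference was not tested. Calls were fewer there. In CC 5 members were higher and 7 lower (3.27% and 4.58%). Of all sequences 1.5% and 2.73% were called there, and of the level window 2.94% and 7.72%. In PC 5 members were higher and 3 lower (3.27% and 1.96%). Of all sequences 0.881% and 1.91% were called there, and of the level window 1.85% and 5.39%. The shares of lower members were thus below those of the level window in both. No member called in C was called in the opposite direction in CC or PC.

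The members called in all 3 kinds of unfed leaf were scaffold20389 and scaffold2767, which rose, and C274723, C292169 and scaffold8893, which fell. Scaffold20389 had 15.4, 15.95 and 17.5 CPM at 6 h in CC, against 6.71, 7.67 and 7.89 CPM at 1 h. C292169 had 2.91, 3.66 and 2.59 CPM at 6 h in CC, against 8.34, 8.09 and 8.67 CPM at 1 h. Neither overlapped between the times, and their log2 fold changes in CC were 1.15 ± 0.20 and -1.44 ± 0.27 (SE). The higher members in CC were scaffold20389, scaffold2767, C309929, C404791 and scaffold8599, and in PC scaffold20389, scaffold2767, C248643, scaffold1486 and scaffold11164. The counts moved with single libraries, from 4 to 16 of the 153 in CC and from 5 to 25 in PC. In CC the lowest count came without replicate 3 at 6 h, and 5 to 7 members were called without replicate 1 or 2 at 1 h or replicate 1 or 4 at 6 h. In PC the highest came without replicate 3 at 1 h, and 5 were called without replicate 1 at 1 h or replicate 1 or 2 at 6 h.

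**Figure D4:**
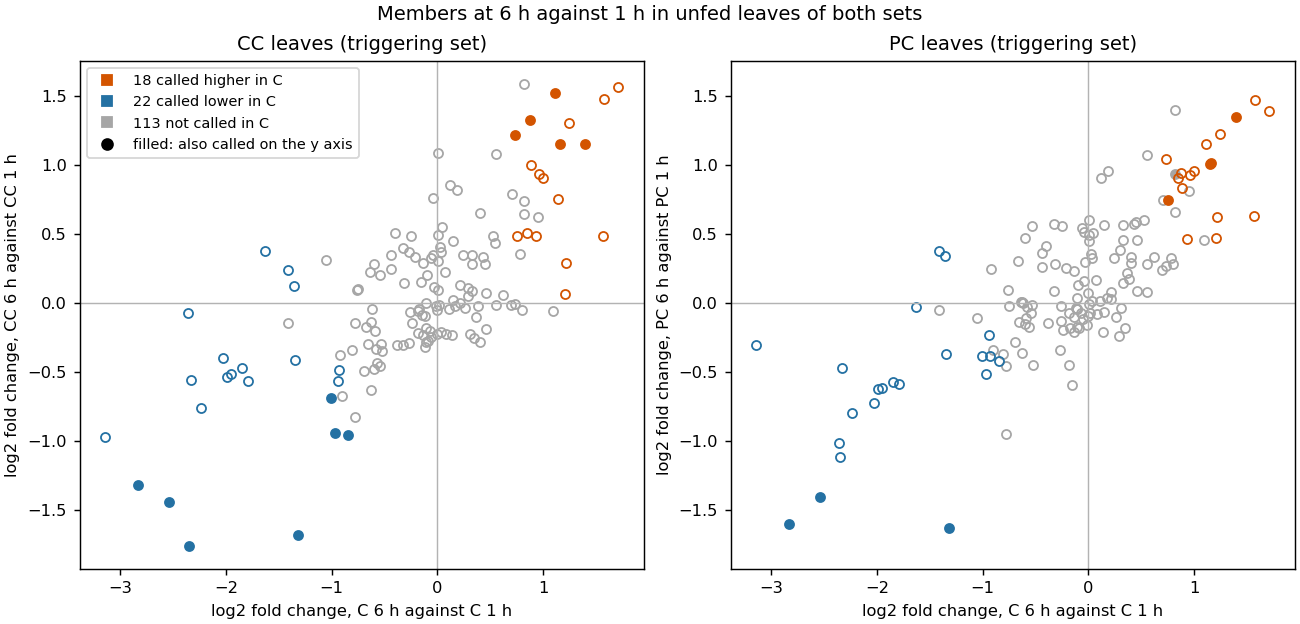
Log2 fold change of 6 h against 1 h for the 153 members, in C leaves (x axis) and in CC and PC leaves (y axes), coloured by the call in C. The 18 members that rose in C lay above 0 in CC and PC, and most of the 22 that fell lay below 0 but nearer to it. Both classes were picked by their call in C, which favours larger fold changes on the x axis.

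In C at 24 h against 6 h, 15 members rose and 25 fell (9.80% and 16.3%), where 6.03% and 6.72% of all sequences were called, and 10.7% and 12.4% of the level window. Of these, 15 belonged to the 22 that had fallen by 6 h and 16 to the 18 that had risen, which share the libraries of 6 h. The other 9 members that fell had not been called before. Without replicate 2 of C at 6 h, 25 members were called in place of 40. In C at 24 h against 1 h no sequence was called by edgeR's quasi-likelihood test (0% of all tested), yet 130 members were below 0, against 50.7% of the window, and the median was -0.27, against 0.00. Before adjustment 29 members (19.0%) were lower and 0 higher, against 3.97% and 4.18% of the window. The C libraries of 24 h lay wholly below those of 1 h in 31 members (20.3%, window 7.52%) and wholly above in 1 (window 4.9%). DESeq2 called 5 members lower, which were scaffold1022, scaffold19243, scaffold2188, scaffold8893 and C357469. Of these, scaffold1022 and C357469 had a correlation of 0.92 over the libraries after the mean of each group was taken off. The share of all sequences that DESeq2 called is not given here, so nothing is read from its count. The median was -0.13 without replicate 2 of C at 24 h, the lowest of its group, and -0.42 without replicate 1.

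Scaffold1022, among the 3 members of highest level, shows this. It had 96.9, 69.2 and 116 CPM in C at 24 h, against 199, 149 and 227 CPM at 1 h, and the groups did not overlap. Its log2 fold change was -0.98 ± 0.23 (SE), at adjusted p = 0.298 by edgeR's quasi-likelihood test. In P leaves it had 64.9, 76.5 and 106 CPM at 24 h. In CC leaves it had 123, 156 and 262 CPM at 1 h and 141, 199 and 122 CPM at 24 h, which overlap.

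In the unfed leaves of the triggering set the members as a whole were near their level of 1 h at 24 h. The mean over libraries of the members' median deviation was 0.17 ± 0.23 in PC and 0.12 ± 0.19 in CC at 24 h, and 0.03 ± 0.32 and 0.14 ± 0.25 at 1 h (SD, n = 3 each). In the priming set it was -0.58 ± 0.24 in P and -0.31 ± 0.33 in C at 24 h, against -0.07 ± 0.05 and 0.01 ± 0.15 at 1 h (SD, n = 3 each). The difference between the sets was not tested and is not free of the rule. The rule set fed leaves against the PC and CC medians of 24 h, which favours members that were high there. It did not use the priming libraries of 24 h in this way.

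Split by their call in C, the 3 classes of members stood at different levels at 6 h and were all low at 24 h of feeding. The mean over libraries of the class median in CT at 6 h was 0.30 for those that rose in C, -0.42 for those that fell and -0.06 for the 113 not called. In CC at 6 h it was 0.71, -0.13 and 0.14. At 24 h the mean of the class median was -1.27, -0.91 and -1.20 in CT and -1.28, -0.67 and -1.04 in PT, which the rule required to be low in each member.

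**Figure D5:**
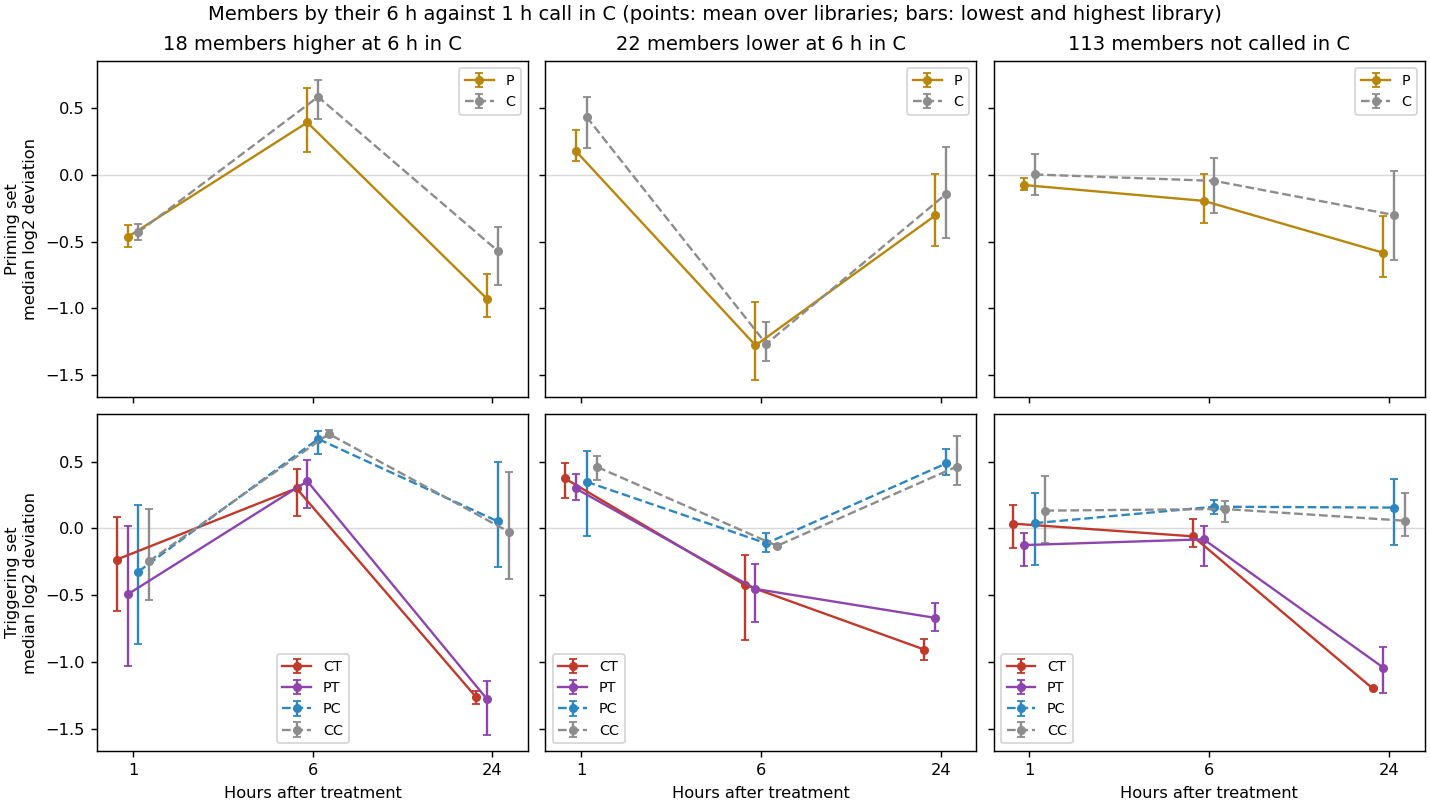
Median log2 deviation of 3 classes of members, split by their call for 6 h against 1 h in C, by hours after treatment in the priming set (upper row) and the triggering set (lower row). Points are means over libraries and bars run from the lowest to the highest library. The classes went different ways at 6 h, and CT and PT stood between -1.28 and -0.67 in each at 24 h. The choice of the classes fixed the split of C at 6 h. The rule kept CT and PT near CC and PC at 6 h and low at 24 h.

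Members also varied together within groups. After the mean of each group was taken off, log2(CPM + 0.5) of 2 members had a median correlation of 0.29 over the 53 libraries and all 11628 pairs, and 31 pairs reached 0.9. As all members share the libraries and their scaling, this is given as a description. The same correlations were not computed over the level window, so the values are not called particular to the members. These pairs joined 36 members into 11 groups of 2 to 7. Several held neighbouring identifiers, such as C155963 with C155965, C325811 with C325813, C329463 with C329465 and C357467 with C357469. Whether such sequences come from 1 gene was not tested, so the 153 members may not be 153 genes. The limit of 0.9 was chosen after the values were seen.

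The group of 6 was made up of members that fell by 6 h in C, which were C151019, C300339, C329463, C329465, C447689 and C462295. At 24 h C447689 had 66.2 and 68.2 CPM in CT, against 158, 227 and 177 CPM in CC. C329463 had 30.05 and 29.7 CPM in CT, against 87.3, 114 and 105 CPM in CC. The pair of C598279 and scaffold2761 had the highest correlation, 0.97. At 24 h C598279 had 81.5 and 104 CPM in CT, against 223, 392.1 and 185 CPM in CC. Scaffold2761 had 38.01 and 49.4 CPM in CT, against 96.2, 164 and 77.4 CPM in CC. Both were highest in replicate 2 of CC. The group of C155963, C155965 and C241559 held the members with the smallest p in P against C at 24 h.

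A group of 4 was made up of scaffold6288, C416477, C106639 and C326099. In replicate 1 of P at 24 h scaffold6288 had 3.79 CPM, C416477 0.600 CPM and C106639 0.126 CPM, against at least 57.9, 5.67 and 1.22 CPM in the other P libraries of that time. In that library 7 members stood lower than the lowest other replicate divided by 4, which were these 4 with C207843, C207845 and C246327, where 0.278% of the level window did so. In the other 52 libraries at most 1 member did. C207845 also had 0 CPM in replicate 1 of C at 1 h and in replicate 4 of CC at 6 h, where its other replicates held 1.19 to 3.72 CPM. Scaffold6288, C416477 and C207845 are thus members with low ratios at 24 h of feeding and with single low libraries among leaves without larvae.

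Over all members the replicates varied more than in the level window. The median SD over the members of log2(CPM + 0.5) within a group was 0.15 to 0.38, against 0.16 to 0.27 in the window, and it was larger than in the window in 16 of the 18 groups. A related list, the 190 sequences of the same window that met the same conditions on eggs and at 24 h but were already below -0.5 in both ratios at 6 h, had a median log2 fold change of -0.19 in P against C at 24 h, where the members had -0.26, and of 0.13 in C at 24 h against 6 h, where the members had -0.30, or -0.10 without replicate 2 of C at 24 h. The related list also leaned the same way as the members in other contrasts. Its median was -0.18 in C at 24 h against 1 h, where the members had -0.27. In PT against CT at 24 h it was 0.12, where the members had 0.20, and in the interaction 0.14, where they had 0.18. The lists were not tested against each other.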

How the data were processed

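The table holds whole-number read counts per assembled sequence, which the authors deposited for 54 libraries. Reads were handled with CASAVA and Trimmomatic 0.33, per the submitters' processing notes. How the sequences were assembled, aligned and counted, and whether by strand, is not given in the sources used here. CPM was computed here from the deposited counts after TMM scaling over 53 libraries. Values of replicate 1 of CT at 24 h come from TMM over all 54.

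The priming set (18 libraries) and the triggering set (35) were fitted apart with edgeR 4.0.16 in R 4.3.3. Sequences passed filterByExpr (minimum count 10, minimum total 15), which all 153 members did, and a call needed p of 0.05 or less after Benjamini-Hochberg adjustment over every sequence tested. SE was taken as the fold change (log2) over the root of edgeR's F. DESeq2 1.42.0, other fits and leaving out each library were alternatives.

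Members and lists were chosen with earlier results of these data known. Genes named were the members lowest in the rule's ratio, those at its edge, those of highest and lowest level, and those of smallest p in each contrast, and others named were chosen after their values were seen. No 2 libraries of the same group agreed within sampling noise (smallest chi-square per degree of freedom 9.48). Libraries of different groups were not compared in this way. Same-numbered libraries deviated together, with every correlation over 0.1, in PC against CC, CT against CC and PT against PC at 1 h. So they did in PT against PC at 6 h. With 2 pairs each, the same held for PC against CC at 6 h and PT against CT at 24 h. The main fits held no term for the replicate numbers, so their SE and p-values are unpaired. The replicate block, an alternative fit, added these numbers.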

Additional observations from a re-analysis of the deposited data

How the results depend on the processing

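No member named for its smallest p changed sign in that contrast under an alternative. The median over the members did so without 1 library in PC against CC at 1 h (-0.31 to 0.05), 6 h (-0.03 to 0.00) and 24 h (-0.04 to 0.21), in CT against CC at 1 h (-0.26 to 0.02) and in C (-0.12 to 0.01) and CC (-0.06 to 0.14) at 6 h against 1 h. Without the filter on low counts that of PC against CC at 6 h was 0.01, and for CC at 6 h against 1 h, where it was 0.00, it was 0.01 to 0.03 under 5 alternatives. With the replicate block the count of members called was 40 for C at 6 h against 1 h, 42 for C at 24 h against 6 h, 9 for CC and 7 for PC at 6 h against 1 h, 139 for CT against CC and 148 for PT against PC at 24 h, and 0 elsewhere, so it changed no count by over 1.5 times.

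DESeq2 called 5 members in C at 24 h against 1 h, 20 in CC and 13 in PC at 6 h against 1 h, and 1 in PT against PC at 6 h. With only the compared groups in the fit, 67 were called in C, 19 in CC and 3 in PC at 6 h against 1 h. With replicate 1 of CT at 24 h in the fit, 6 were called in CC and 4 in PC. The shares over all sequences in these fits are not given here, so nothing about the members is read from these counts. The cause of the differences between fits was not tested.

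Leaving out 1 library in turn gave 25 to 39 calls in C at 24 h against 6 h, 23 to 33 in C, 4 to 16 in CC and 5 to 25 in PC at 6 h against 1 h, 0 to 1 in P against C at 24 h, 42 to 136 in CT against CC and 97 to 143 in PT against PC at 24 h.

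The rule found 90 of the 153 members again with group means in place of medians and 100 with an offset of 1 CPM, and 101 to 142 without 1 library. Depth limits the values of replicate 1 of CT at 24 h, with a median of 8 reads per member.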
